A study of Mus musculus with 8 samples.

Results

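The genes described here encode the fibrillar and basement membrane scaffold of the lung: collagens, laminins, elastic fibre proteins and the proteins that bind or cross-link them. They were taken by symbol as every probe set annotated with a single collagen chain (Col, number, a, number), a single laminin chain (Lama, Lamb or Lamc and a number) or 1 of 23 further matrix genes. The rule found 59 of the 8251 genes that had a probe set of their own, read by 85 of 12422 probe sets: 31 collagen, 9 laminin and 19 other genes. A probe set is a group of short probes that reads 1 transcript, and 20 of the 59 genes had more than 1. Fbn1, Loxl2, Fbln5 and Thbs1, also named in the rule, had no probe set of a single symbol and were not analysed here.

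Total RNA of whole murine lung had been hybridised to Affymetrix arrays, 2 for each of 4 groups: C3H/HeOuJ in ozone, C3H/HeOuJ in filtered air, C3H/HeJ in ozone and C3H/HeJ in filtered air. Both are substrains of C3H mice. C3H/HeJ carries a missense mutation of the endotoxin receptor Tlr4 and responds poorly to endotoxin, and C3H/HeOuJ carries the intact gene. An exposure time, 72 h, is on record for the C3H/HeOuJ arrays alone, and neither the ozone concentration nor the age of the mice is given. Nothing says that the arrays of a group, named 1a and 1b, came from different mice. The p-values then reflect only array-to-array spread, possibly technical, and the number of arrays limits the precision.

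Collagens are built of 3 chains wound around each other, and some types, such as I, IV, VI and IX, combine chains from more than 1 gene. Fibrillar collagens give the lung its tensile strength, elastin lets it recoil, and Lox and its relatives cross-link both. Basement membranes under epithelium and endothelium are sheets of type IV collagen and laminin joined by nidogens and perlecan. Fibroblasts make most of the fibrillar matrix, while epithelium, endothelium and smooth muscle add to the basement membranes. In whole lung RNA, fewer cells of a type and less RNA per cell cannot be told apart.

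Of the 85 probe sets, 82 lay above a floor of 69.6 intensity units (the 20th percentile of all values) on at least 2 of 8 arrays and entered the test, and 64 lay above it on all 8. The 3 left out belonged to Col22a1, Col4a3 and 1 of the 4 probe sets of Fbln1. Passing means an adjusted p under 0.05 in limma, fitted to all 8 arrays and adjusted by Benjamini-Hochberg over 10953 probe sets. Fold changes are on the log2 scale with their standard error (SE). An array's median intensity lay between 350 and 385. The HeOuJ ozone arrays stood apart: their actin control had a 5'/3' ratio of 0.766 and 0.756, against 0.432 to 0.603 on the other 6 arrays. Of these, the HeOuJ air arrays had 0.598 and 0.603 and the HeJ arrays 0.432 to 0.53. For Gapdh the HeOuJ ozone arrays had 1.34 and 1.18 and the others 0.775 to 1.06. Their mutual rank correlation was 0.931, below the 0.952 to 0.961 of the other 3 groups.

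The start region of Col9a1 is shown because this was the only matrix gene to pass in any of the 6 comparisons, and that of Col4a1 and Col4a2 because these chains share 1 region. Each window runs from 250 bases before to 50 after a RefSeq start (GRCm38.p6), 5′ to 3′ on the strand of the gene, and RefSeq windows were found for 38 of the 59 genes. Capitals mark a CCAAT box (CCAAT) or a GC box (GGGCGG) on either strand; the TATA box (TATAAA) and the SOX core (AACAAT) were searched too and occur in none of the 4 windows.
Col9a1 upstream start, chr1:24177360-24177659, plus strand: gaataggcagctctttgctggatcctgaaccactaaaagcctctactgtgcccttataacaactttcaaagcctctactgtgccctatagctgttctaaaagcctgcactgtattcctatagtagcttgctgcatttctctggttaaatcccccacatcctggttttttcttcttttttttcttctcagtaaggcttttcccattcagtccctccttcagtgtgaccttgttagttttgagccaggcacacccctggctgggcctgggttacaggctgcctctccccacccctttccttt
Col9a1 downstream start, chr1:24194953-24195252, plus strand: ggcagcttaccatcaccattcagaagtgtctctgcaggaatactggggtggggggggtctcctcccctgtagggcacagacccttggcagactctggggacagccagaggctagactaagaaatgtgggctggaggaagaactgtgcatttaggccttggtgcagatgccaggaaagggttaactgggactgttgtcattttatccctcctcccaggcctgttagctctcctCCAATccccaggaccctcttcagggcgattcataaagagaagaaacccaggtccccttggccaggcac
Col4a1, chr8:11312777-11313076, minus strand: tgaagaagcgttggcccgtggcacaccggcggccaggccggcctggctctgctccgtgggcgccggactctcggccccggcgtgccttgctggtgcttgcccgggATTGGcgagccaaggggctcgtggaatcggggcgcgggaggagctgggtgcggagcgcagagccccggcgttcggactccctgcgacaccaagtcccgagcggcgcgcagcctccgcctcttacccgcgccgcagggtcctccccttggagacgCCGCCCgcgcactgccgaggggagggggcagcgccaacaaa
Col4a2, chr8:11312555-11312854, plus strand: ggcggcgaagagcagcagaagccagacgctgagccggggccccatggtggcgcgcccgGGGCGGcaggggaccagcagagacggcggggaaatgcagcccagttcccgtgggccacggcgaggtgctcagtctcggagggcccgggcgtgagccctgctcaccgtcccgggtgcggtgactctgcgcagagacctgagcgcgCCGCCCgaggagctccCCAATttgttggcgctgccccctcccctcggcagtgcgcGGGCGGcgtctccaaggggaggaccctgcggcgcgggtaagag

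Col9a1 has 2 annotated starts, and the array value does not tell which one was used. The upstream window holds none of the 4 motifs and the downstream one a single CCAAT box. Col4a1 and Col4a2 lie head to head on opposite strands, with starts 21 bases apart and windows that share 78 bases. Both windows hold a CCAAT box and at least 1 GC box. Over all 32851 RefSeq windows of this length, 35.7% hold a GC box, 37.4% a CCAAT box, 13.6% a TATA box and 10.7% a SOX core on either strand. Among the 45 windows of matrix genes the shares were 53.3%, 33.3%, 20% and 6.67%. These matches only describe the letters.

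In C3H/HeOuJ lungs, Col9a1 was higher in ozone than in air, and probe sets of Lox and of all 3 type VI collagen chains had lower values without passing. Col9a1 was the 1 of 82 matrix probe sets that passed, against 0.456% of all probe sets (0.128% higher and 0.329% lower). At an unadjusted p under 0.05 there were 6 higher and 14 lower matrix probe sets, together 24.4% of them, against 7.77% higher, 7.73% lower and 15.5% in all among the 10953. The arrays of ozone and air did not overlap for 14 higher and 23 lower matrix probe sets, 17.1% and 28% of them, against 22.3% higher and 19.5% lower among all. The median log2 fold change was -0.11 for the matrix probe sets, 36 positive and 46 negative, and 0.02 for all probe sets. It was -0.03 (40 positive and 42 negative) without HeOuJ ozone 1b and -0.05 without HeOuJ air 1b. The 20 matrix probe sets with an unadjusted p under 0.05 became 12 without HeOuJ air 1b, 13 without HeOuJ ozone 1a and 11 in a fit of the 4 HeOuJ arrays alone.

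Col9a1 encodes a chain of type IX collagen, which coats cartilage fibrils and also occurs in a short form outside cartilage. Its intensity was 1133 and 906 in HeOuJ ozone, 345 and 425 in HeOuJ air, 571 and 616 in HeJ ozone and 634 and 654 in HeJ air. The ozone arrays of HeOuJ were thus the highest of the 8 and the air arrays of HeOuJ the lowest. Ozone over air was 2.65-fold in HeOuJ, or 1.40 in log2 (SE 0.22, limma adjusted p 0.0464). In C3H/HeJ the log2 fold change was -0.12 (SE 0.22), and the difference between the strains' ozone effects was 1.52 (SE 0.32, limma adjusted p 0.176), which did not pass. The call of the rise was lost when any of the 8 arrays was left out. Such a fit keeps 1 array in a group, and calls then fell over all probe sets. The log2 fold change of Col9a1 in these fits ran from 1.24 to 1.57.

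The partner chains of type IX collagen did not give 1 picture. Col9a2 had 849 and 679 in HeOuJ ozone and 785 and 609 in HeOuJ air, which overlap, and a log2 fold change of 0.14 (SE 0.23). Col9a3 had 670 and 533 in HeOuJ ozone and 332 and 378 in HeOuJ air on 1 probe set, without overlap (0.75, SE 0.28). On its other probe set, both ozone arrays lay below the floor and the log2 fold change was -0.55 (SE 0.32). Cartilage markers gave the following values on the same arrays. Of 5 cartilage genes on the array, Matn1 and Hapln1, a matrilin and a link protein of cartilage, lay below the floor on all 8 arrays, and aggrecan (Acan) did so on all 4 HeOuJ arrays. Matn3, another matrilin, read 189 on HeOuJ ozone 1a, the array with the highest Col9a1, and 11.4 to 20 on the other 7, below the floor. Chad, a cartilage leucine-rich repeat protein, read 565 and 807 in HeOuJ ozone and 780 and 779 in HeOuJ air. The 5 genes summed to 853 and 931 in HeOuJ ozone and 867 and 920 in HeOuJ air, mostly from Chad. They summed to 1090 and 1158 in HeJ ozone and 1065 and 1269 in HeJ air. The part of cartilage in the Col9a1 value was not tested.

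**Figure D1:**
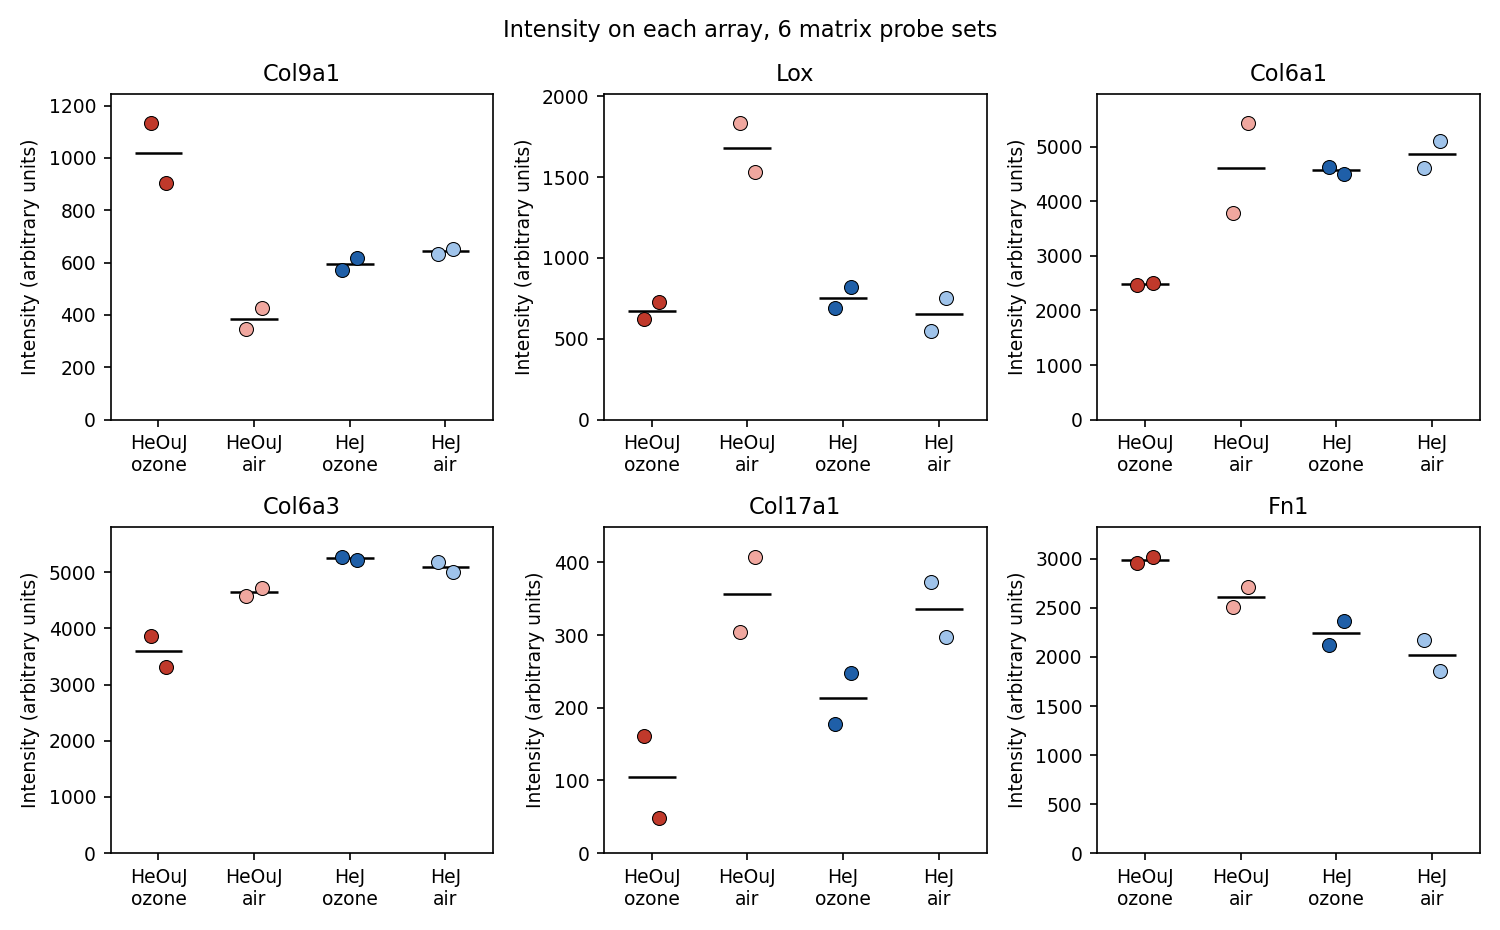
Intensity (arbitrary units, linear axis from 0) of 6 matrix probe sets on each of the 8 arrays; points are arrays and bars are group means of 2 arrays. Col9a1 lies at 1133 and 906 in HeOuJ ozone, above the other 6 arrays, and Lox lies at 1834 and 1530 in HeOuJ air, above the other 6.

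Lox, the oxidase that starts the cross-linking of collagen and elastin, set 1 group apart. On 1 of its 2 probe sets it read 624 and 726 in HeOuJ ozone, 1834 and 1530 in HeOuJ air, 692 and 818 in HeJ ozone and 551 and 755 in HeJ air. Only the HeOuJ air arrays were high, and the other 3 groups overlapped. The log2 fold change of ozone over air in HeOuJ was -1.32 (SE 0.22, limma adjusted p 0.0505), just outside the threshold. HeOuJ over HeJ in air was 1.38 (SE 0.22, limma adjusted p 0.169), and the difference between the ozone effects was -1.54 (SE 0.31, limma adjusted p 0.172). These 3 values share the HeOuJ air arrays and are not separate results. With the floor at the 10th percentile the lower Lox value passed, with a limma adjusted p of 0.0431. A second Lox probe set, made of probes that can bind related sequences, read 224 and 215 in HeOuJ ozone and 236 and 194 in HeOuJ air, giving 0.04 (SE 0.54).

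The other elastic fibre genes did not pass in any comparison. Elastin (Eln) read 5054 and 6146 in HeOuJ ozone and 6817 and 11931 in HeOuJ air, without overlap, but the air arrays differed widely from each other. Its log2 fold change was -0.69 (SE 0.25), and a second Eln probe set gave 0.05 (SE 0.42). Loxl1, the relative of Lox that acts on elastin, had 291 and 267 in HeOuJ ozone against 369 and 551 in HeOuJ air, and 279 and 422 in HeJ ozone against 468 and 470 in HeJ air. Its ozone arrays were below its air arrays in each strain, and the log2 fold changes were -0.69 (SE 0.33) and -0.45 (SE 0.33). The fibulins Fbln1 and Fbln2, which link elastic fibres to basement membranes, had HeOuJ ozone effects between -0.10 and 0.36. The upper one was a Fbln1 probe set at 2840 and 2343 in HeOuJ ozone and 1862 and 2157 in HeOuJ air, without overlap (SE 0.15). Fibrillin 2 (Fbn2), mostly a fetal microfibril protein, was below the floor on both HeOuJ air and both HeJ ozone arrays. It read 261 and 65.9 in HeOuJ ozone, so 1 of these arrays was above the floor.

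Type VI collagen, which forms beaded filaments around cells, had lower intensities in HeOuJ ozone in each of its 3 measured chains, although none passed. Col6a1 read 2459 and 2500 in HeOuJ ozone, 3787 and 5432 in HeOuJ air, 4636 and 4494 in HeJ ozone and 4619 and 5102 in HeJ air. The HeOuJ ozone arrays were the lowest of the 8, with a log2 fold change of -0.87 (SE 0.17, limma adjusted p 0.0715). A second Col6a1 probe set, with 432 and 265 in HeOuJ ozone and 549 and 846 in HeOuJ air, gave -1.01 (SE 0.32). It read 695 and 739 in HeJ ozone and 484 and 624 in HeJ air. The difference between its ozone effects was -1.39 (SE 0.46, limma adjusted p 0.32). Col6a3 read 3861 and 3322 in HeOuJ ozone, 4576 and 4726 in HeOuJ air, 5278 and 5223 in HeJ ozone and 5175 and 5001 in HeJ air (HeOuJ ozone over air -0.38, SE 0.12). Col6a2, the neighbour of Col6a1 on chromosome 10, read 1057 and 969 against 1034 and 2024 and overlapped (-0.51, SE 0.29). In C3H/HeJ the same 4 probe sets had log2 fold changes from -0.09 to 0.38. Without HeOuJ air 1b the Col6a1 change was -0.61 in place of -0.87. With the 5'/3' control ratio as a covariate Col6a2 turned to 0.39 (SE 0.55), while Col6a3 had -0.50 (SE 0.27) and the Col6a1 probe sets -0.35 (SE 0.32) and -0.52 (SE 0.70). Col7a1, the anchoring fibril collagen, had -0.10 (SE 0.36).

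**Figure D2:**
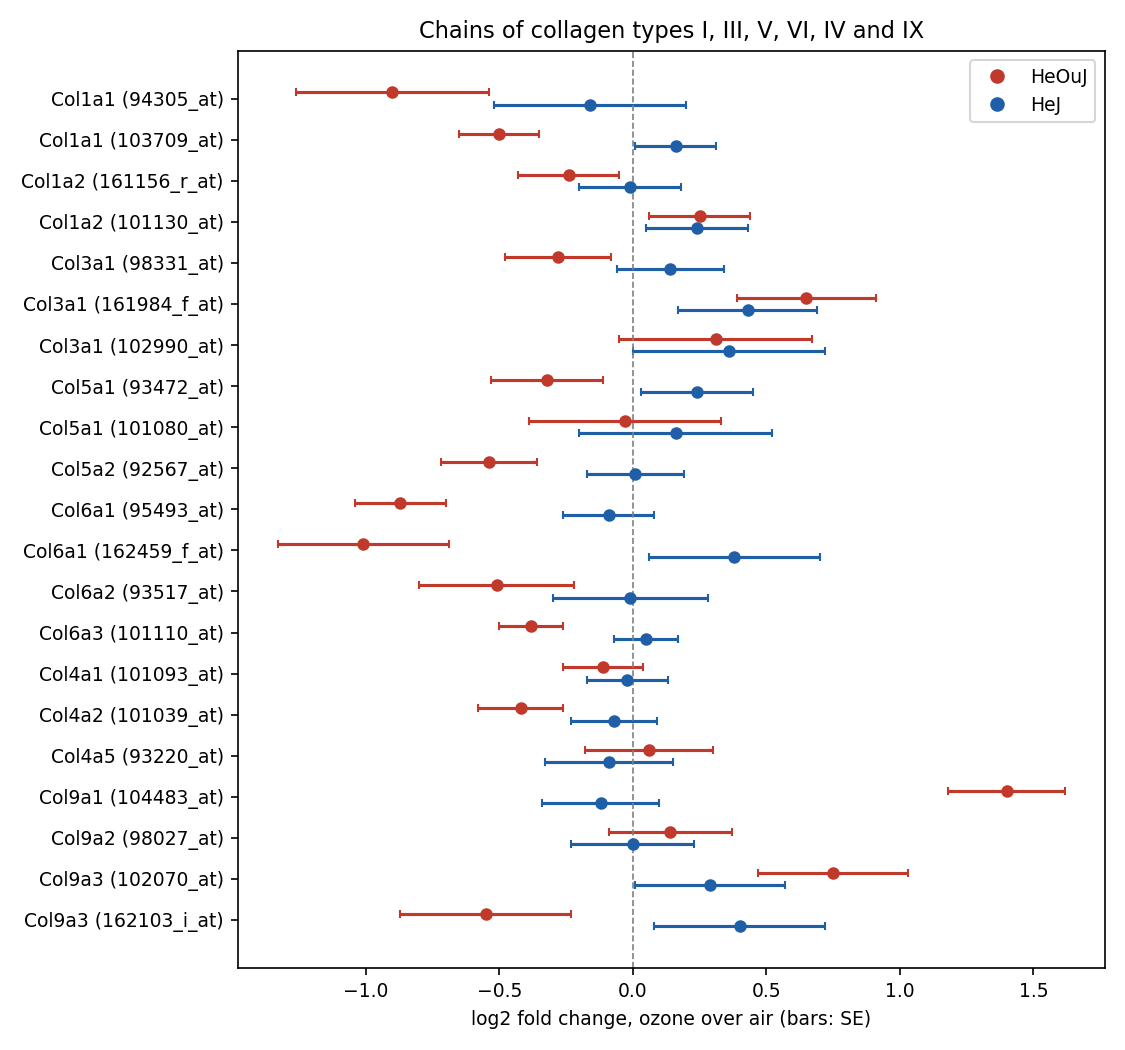
Log2 fold change of ozone over air for the chains of 6 collagen types, HeOuJ in red and HeJ in blue, 1 row per probe set; bars are standard errors from limma. All 4 type VI probe sets lie below 0 in HeOuJ (-1.01 to -0.38), and Col9a1 at 1.40 lies farthest above 0.

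Fibrillar collagens did not pass in any comparison. Of 13 probe sets, 9 were negative and 4 positive in HeOuJ (median -0.28), and 4 negative and 9 positive in HeJ (median 0.16). Col1a1, the main chain of type I collagen, read 2200 and 2675 in HeOuJ ozone and 3351 and 3514 in HeOuJ air on 1 probe set (-0.50, SE 0.15), and 1799 and 1675 against 2111 and 5003 on the other (-0.90, SE 0.36). Ozone was below air without overlap on both, but the second had 1 high air array. With the 5'/3' covariate both turned sign, to 0.03 (SE 0.27) and 0.49 (SE 0.59). Its partner Col1a2 gave 0.25 (SE 0.19) and -0.24 (SE 0.19) on its 2 probe sets, which overlapped. Col3a1, the collagen of distensible tissue, gave -0.28, 0.31 and 0.65 on 3 probe sets in HeOuJ and so had no single direction there. In HeJ the same probe sets gave 0.14, 0.36 and 0.43. On the last of them the ozone arrays lay above the air arrays in both strains (average 0.54, SE 0.19). Col5a2, a nucleator of thin fibrils that neighbours Col3a1 on chromosome 1, read 1277 and 1839 in HeOuJ ozone and 2230 and 2223 in HeOuJ air (-0.54, SE 0.18). The cartilage chains Col2a1, Col11a1 and Col11a2 each lay below the floor on at least 1 array. Their HeOuJ log2 fold changes were -0.55 (SE 0.69), -1.14 (SE 0.52) and 0.55 (SE 0.59). Col11a1 read 139 and 34.6 in HeOuJ ozone and 304 and 155 in HeOuJ air, without overlap.

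Among the network collagens, none passed. Col4a1, which shares its start region with Col4a2, read 8363 and 6467 in HeOuJ ozone and 7534 and 8343 in HeOuJ air, which overlap (-0.11, SE 0.15). Col4a2 read 8655 and 7374 in HeOuJ ozone and 9595 and 11965 in HeOuJ air, which do not (-0.42, SE 0.16). Both chains lay within 0.07 of 0 in HeJ, at -0.02 (SE 0.15) and -0.07 (SE 0.16). Col4a4, a chain of the specialised alveolar basement membrane, had ozone below air without overlap in HeJ and with overlap in HeOuJ. It read 39.1 and 92.3 in HeOuJ ozone against 85.3 and 369 in HeOuJ air, and 77.6 and 159 in HeJ ozone against 310 and 293 in HeJ air. Averaged over the strains its log2 fold change was -1.29 (SE 0.47, limma adjusted p 0.455). Its neighbour Col4a3 was too dim to be tested.

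Among the collagens of epithelial and vascular basement membranes, Col17a1, a hemidesmosome protein that anchors basal epithelial cells, read 161 and 49 in HeOuJ ozone, 305 and 408 in HeOuJ air, 178 and 248 in HeJ ozone and 373 and 298 in HeJ air. Ozone was below air without overlap in each strain. The log2 fold changes were -1.74 (SE 0.47, limma adjusted p 0.145) in HeOuJ, where 1 ozone array lay below the floor, and -0.67 (SE 0.47) in HeJ. Col15a1 read 225 and 167 in HeOuJ ozone and 351 and 430 in HeOuJ air (-1.01, SE 0.35). Col18a1, the parent of endostatin, had the smallest p of the matrix genes in HeJ. It read 1280 and 1662 in HeOuJ ozone and 1331 and 1323 in HeOuJ air, which overlap. It read 1127 and 1166 in HeJ ozone and 1551 and 1574 in HeJ air, a log2 fold change of -0.45 (SE 0.16, limma adjusted p 1), and 0.14 (SE 0.16) in HeOuJ. Its 4 other probe sets gave -0.52 to 0.27 in HeJ. Col13a1, a transmembrane collagen of cell junctions, read 1975 and 1416 in HeOuJ ozone, 1801 and 1824 in HeOuJ air, 1416 and 1309 in HeJ ozone and 1497 and 1067 in HeJ air, and its HeOuJ arrays overlapped.

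Laminins, the cross-shaped trimers of basement membranes, were nearly balanced: 8 of 14 probe sets were positive in HeOuJ (median 0.02) and 7 in HeJ. The largest change in HeOuJ was that of 1 probe set of Lamb3, a chain of epithelial laminin 332. It read 692 and 1029 in HeOuJ ozone and 306 and 563 in HeOuJ air. In HeJ it read 1068 and 782 in ozone and 758 and 769 in air. HeOuJ air was the low group, and the log2 fold change of ozone over air was 1.02 (SE 0.33, limma adjusted p 0.2). The other Lamb3 probe set gave 0.15 (SE 0.13), at 2311 and 2586 in HeOuJ ozone and 2157 and 2243 in HeOuJ air. Its partner Lama3 read 1522 and 1203 against 1714 and 1463 and overlapped. A Lama5 probe set read 311 and 325 in HeOuJ ozone and 163 and 215 in HeOuJ air (0.76, SE 0.35), and had 0.40 (SE 0.35) in HeJ. Its ozone arrays lay above its air arrays in both strains. The other Lama5 probe set gave 0.04 (SE 0.20) in HeOuJ. Hspg2 (perlecan) read 415 and 1044 in HeOuJ ozone and 680 and 2152 in HeOuJ air, so the groups overlapped (-0.88, SE 0.54). Nid1, a linker of laminin and type IV collagen, read 203 and 128 in HeOuJ ozone and 199 and 170 in HeOuJ air. Nid1 and Nid2 had HeOuJ ozone effects of -0.19 (SE 0.46) and -0.11 (SE 0.39).

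The proteoglycans and glycoproteins held no call either. Biglycan (Bgn), a small proteoglycan of collagen fibrils, read 13250 and 18810 in HeOuJ ozone and 16626 and 19946 in HeOuJ air, which overlap (-0.21, SE 0.20). Its second probe set, which can bind related sequences, read 1792 and 2819 against 3150 and 3574, without overlap (-0.58, SE 0.21, limma adjusted p 0.24). Versican (Vcan), a large proteoglycan of provisional matrix, read 86.1 and 69.1 in HeOuJ ozone, the second value below the floor, and 217 and 130 in HeOuJ air (-1.12, SE 0.45, limma adjusted p 0.281). Decorin (Dcn), a relative of biglycan, read 5135 and 4491 in HeOuJ ozone and 4906 and 5799 in HeOuJ air, which overlap (-0.15, SE 0.16). In all, 5 of 7 proteoglycan probe sets were negative in HeOuJ (median -0.21), and 4 of 6 glycoprotein probe sets were positive (median 0.25). Lumican (Lum), the neighbour of Dcn on chromosome 10, read 374 and 345 in HeOuJ ozone, 406 and 761 in HeOuJ air, 750 and 757 in HeJ ozone and 314 and 610 in HeJ air. Ozone was below air in HeOuJ (-0.63, SE 0.39) and above it in HeJ (0.78, SE 0.39), and the difference of the effects, -1.41 (SE 0.55, limma adjusted p 0.39), did not pass. Sparc, a collagen-binding matricellular protein, read 6088 and 8054 in HeOuJ ozone and 9439 and 9484 in HeOuJ air (-0.43, SE 0.17). Tenascin C (Tnc), a glycoprotein of tissue repair, read 474 and 344 against 227 and 242 (0.78, SE 0.34). Thbs2, a thrombospondin that limits vessel growth, was below the floor on both HeOuJ air arrays and read 109 and 106 in HeOuJ ozone. Periostin (Postn), a glycoprotein of fibroblasts, read 3460 and 2714 in HeOuJ ozone and 3884 and 3346 in HeOuJ air. It read 4202 and 3715 in HeJ ozone and 3007 and 3325 in HeJ air, without overlap (0.32, SE 0.16), and -0.23 (SE 0.16) was its log2 fold change in HeOuJ.

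**Figure D3:**
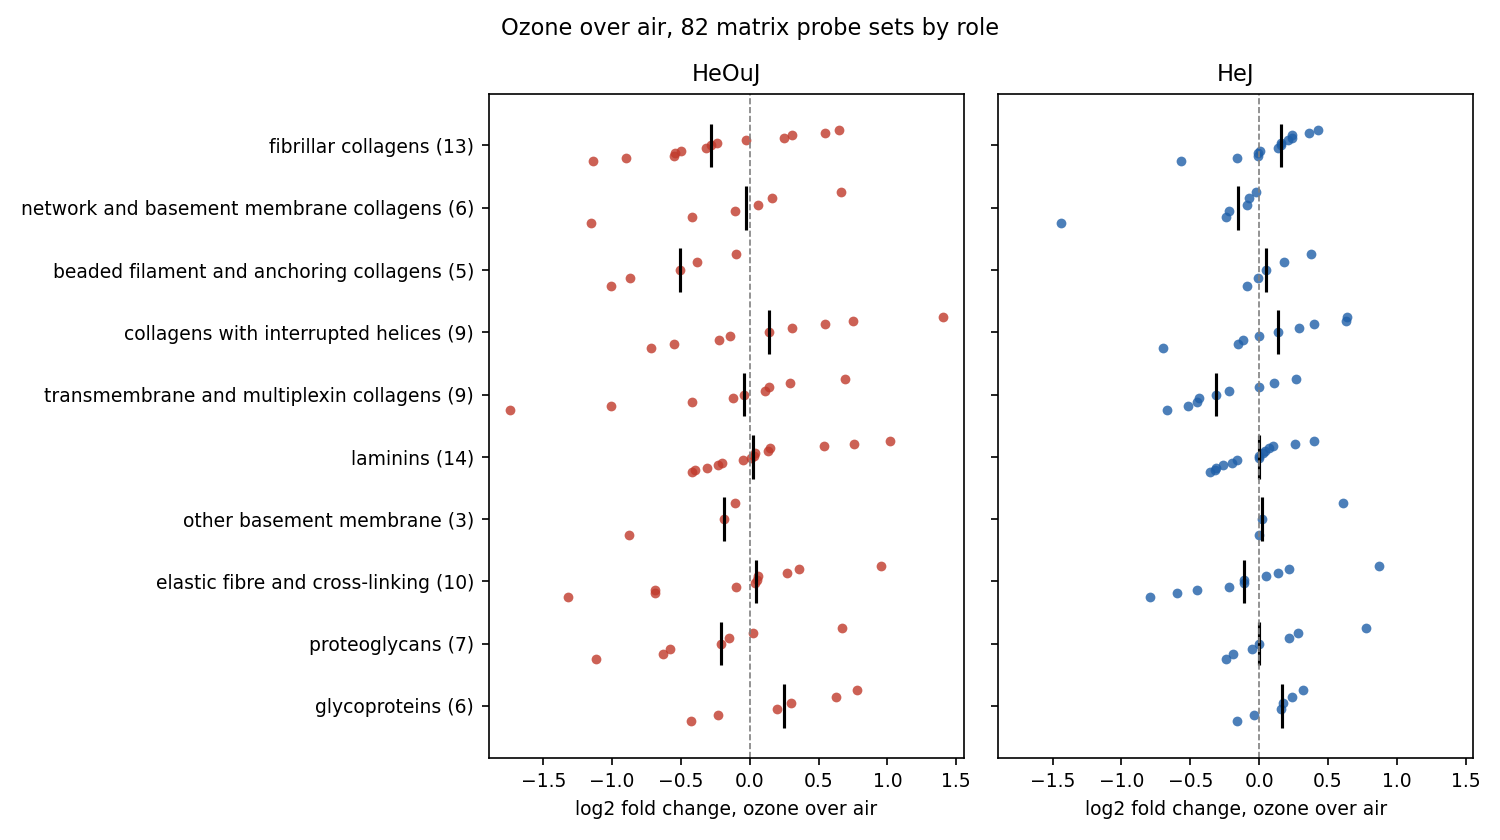
Log2 fold change of ozone over air for the 82 tested matrix probe sets in HeOuJ (left) and HeJ (right), 1 point per probe set, grouped by role with the number of probe sets in parentheses; black bars are medians. The fibrillar collagens have medians of -0.28 in HeOuJ and 0.16 in HeJ, and the laminins are centred near 0 in both.

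In C3H/HeJ no matrix probe set passed, and none of the 10953 did (0%) in limma. At an unadjusted p under 0.05 there was 1 matrix probe set, the Col18a1 one, lower and 1.22% of them, against 2.36% higher, 1.99% lower and 4.35% in all among the 10953. The arrays did not overlap for 11 higher and 12 lower matrix probe sets, 13.4% and 14.6%, against 18.4% and 16% of all. Averaged over the strains, again no matrix probe set passed (0.0183% of all did), and Col9a1 (0.64, SE 0.16) and Col6a1 (-0.48, SE 0.12) had the smallest p. At an unadjusted p under 0.05 there were 5 higher and 7 lower, 14.6% of them, against 4.71%, 4.54% and 9.25% in all. The 4 ozone and 4 air arrays did not overlap for 3 higher and 1 lower, against 2.01% and 1.22% of all probe sets. No matrix probe set passed for the difference between the strains' ozone effects (0% of all), with 2 positive and 7 negative at an unadjusted p under 0.05, 11% of them against 5.13% positive, 6.3% negative and 11.4% in all.

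Between the strains in filtered air no matrix probe set passed (0.0456% of all did, 0.0274% higher and 0.0183% lower in HeOuJ). At an unadjusted p under 0.05 there were 4 higher and 2 lower in HeOuJ, 7.32% of them, against 3.12%, 2.58% and 5.71% in all. The arrays did not overlap for 11 higher and 12 lower, 13.4% and 14.6%, against 17.1% and 15.5% of all. The median log2 fold change of the matrix probe sets in air was -0.05. It was 0.11 without HeOuJ air 1a, -0.15 without HeOuJ air 1b and 0.17 with the 5'/3' covariate. For HeOuJ over HeJ averaged over the exposures, this median was -0.06, and 0.22 with the covariate. Besides Lox, the smallest p-values belonged to Col9a1 (-0.75, SE 0.22), Fn1 (0.38, SE 0.13) and 1 of the 2 Lamb3 probe sets (-0.88, SE 0.33). Fibronectin (Fn1), the adhesive glycoprotein of plasma and provisional matrix, read 2955 and 3023 in HeOuJ ozone, 2511 and 2709 in HeOuJ air, 2125 and 2370 in HeJ ozone and 2173 and 1858 in HeJ air. All 4 HeOuJ arrays were above all 4 HeJ arrays, and the log2 fold change of HeOuJ over HeJ, averaged over the exposures, was 0.39 (SE 0.10, limma adjusted p 0.151). In the same comparison Col6a1 had -0.49 (SE 0.12, limma adjusted p 0.162) and Lox 0.61 (SE 0.15, limma adjusted p 0.166), and the arrays of the strains overlapped for both. Col6a3 had all 4 HeOuJ arrays below all 4 HeJ arrays (-0.34, SE 0.09, limma adjusted p 0.169), as did 1 probe set of Lamb1 (-0.59, SE 0.17). A separation of this kind was met by 2.7% of all probe sets upward and 2% downward, and by 1 and 2 of the 82 matrix probe sets. None of the matrix probe sets passed in this comparison either (0.155% of all did, 0.1% higher and 0.0548% lower). At an unadjusted p under 0.05 there were 4 higher and 7 lower, 13.4% of them, against 6.68%, 6.35% and 13% in all.

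The lower median of the matrix probe sets in HeOuJ ozone moved with the 5'/3' control ratio. With the log2 ratio, averaged over actin and Gapdh, as a covariate, the median log2 fold change of the 82 was 0.20, with 51 positive and 31 negative, and 27 turned sign. Besides Col1a1 and Col6a2, these included Hspg2 (1.25, SE 0.88), Lum (0.93, SE 0.60), Col4a4 (0.71, SE 1.29) and both probe sets of Bgn (0.20, SE 0.41, and 0.13, SE 0.37). For all probe sets the median was -0.04 with the covariate and 0.02 without it, and turned signs were not counted there. With group means in the model, the covariate is fitted only to differences between the 2 arrays of a group. The median SE of the matrix probe sets was 0.62 with the covariate and 0.32 without it, so effects near 0 can turn sign easily. Col6a1 then had -0.35 (SE 0.32), Eln -0.12 (SE 0.51) and Lox -0.89 (SE 0.46), all nearer to 0, whereas Col9a1 had 1.54 (SE 0.50) and Col17a1 -2.24 (SE 1.04). The ratio and the HeOuJ ozone group nearly coincide, and the actin ratio was also higher in HeOuJ air than on any HeJ array. The part of RNA quality in these values and in the strain differences was not tested.

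**Figure D4:**
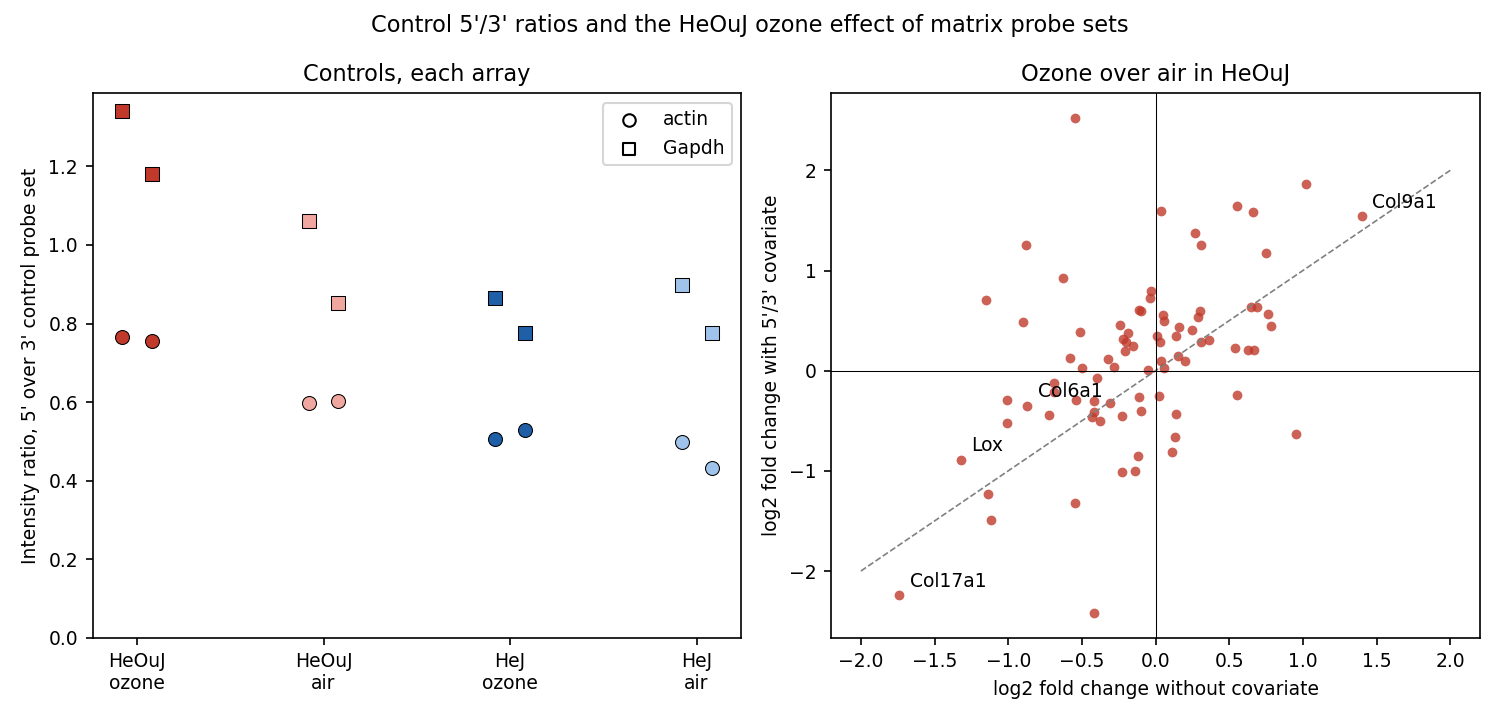
Left, 5'/3' intensity ratio of the actin (circles) and Gapdh (squares) controls by array; right, the HeOuJ ozone effect (log2 fold change, ozone over air) of 82 matrix probe sets without and with this ratio as a covariate, where the dashed line marks equal values. The HeOuJ ozone arrays have the highest ratios, and Col6a1 is at -0.35 with the covariate and -0.87 without it.

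The cells that make matrix were read from their markers. Of 15 tested fibroblast probe sets, 9 were positive and 6 negative in HeOuJ, and 1 passed, a probe set of the actomyosin-binding gene Limch1 (-1.30, SE 0.13, limma adjusted p 0.0136), whose other probe set gave 0.52 (SE 0.20). The fibroblast list summed to 67114 and 72636 in HeOuJ ozone and 62261 and 71242 in HeOuJ air, mostly from Inmt (0.15, SE 0.22). Pdgfra, the receptor that marks lung fibroblasts, has 3 probe sets. The brightest read 6881 and 7173 in HeOuJ ozone and 9862 and 8906 in HeOuJ air, without overlap (-0.42, SE 0.13, limma adjusted p 0.194). The others, much dimmer, gave 0.29 (SE 0.29) and 0.05 (SE 0.30). Fgf10, a fibroblast growth factor, lay below the floor on all 8 arrays. Smooth muscle markers summed to 8088 and 8726 in HeOuJ ozone and 8922 and 9461 in HeOuJ air, with 5 of 6 negative. In HeJ they summed to 7976 and 8091 in ozone and 9119 and 10872 in air, with 6 of 6 negative. Endothelial markers summed to 26958 and 30183 in HeOuJ ozone against 28262 and 32397 in HeOuJ air, with 4 of 6 negative. Alveolar type 1 markers summed to 72835 and 76787 in HeOuJ ozone against 65050 and 66163 in HeOuJ air. Club cell markers summed to 93199 and 95404 against 58565 and 81678. Alveolar type 2 markers summed to 104654 and 114919 in HeOuJ ozone against 61363 and 78497 in HeOuJ air. The surfactant protein gene Sftpc made up most of that sum (0.92, SE 0.29), and Sftpb and Sftpd had -0.19 (SE 0.29) and -0.80 (SE 0.47). Macrophage markers summed to 33514 and 38084 against 26077 and 33898, mostly from the lysozyme gene Lyz2 (0.49, SE 0.23), with 2 of 5 tested probe sets positive. Among them 1 passed, and it was lower: Chil3, a chitinase-like protein of macrophages, read 2719 and 2459 in HeOuJ ozone and 7031 and 4978 in HeOuJ air (-1.19, SE 0.18, limma adjusted p 0.0464). Their part in the matrix values was not tested.

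Genes that process, regulate or bind matrix had no call for ozone in HeOuJ or HeJ. Of 22 probe sets for collagen processing, 11 were positive and 11 negative in HeOuJ, and 8 and 14 in HeJ. Serpinh1, the collagen chaperone, read 7585 and 7195 in HeOuJ ozone against 5064 and 4569 in HeOuJ air (0.62, SE 0.14, limma adjusted p 0.0999), and Ppib, a folding enzyme of collagen, had 0.42 (SE 0.14). Of 21 probe sets for TGF-beta signalling and matrix growth factors, 10 were positive and 11 negative, with Ccn1 at 0.87 (SE 0.23) and Smad2 at -0.78 (SE 0.19). Of 25 probe sets for matrix receptors, 11 were positive and 14 negative. The lowest and the highest both belonged to Itgav, at -0.85 (SE 0.35) and 1.27 (SE 0.53). Itga3 had -0.73 (SE 0.27) and -0.58 (SE 0.23), and Itgb1 had 0.43 (SE 0.17) and 0.13 (SE 0.18).

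Repeated probe sets of 1 gene often differed. Of the 20 matrix genes with more than 1 tested probe set, 10 had all of them on the same side of 0 for ozone in HeOuJ, and 10 did so in HeJ. In all, 22 of the 85 probe sets carry a letter in their name that marks shared, pooled or incomplete probes. Col9a1 has a single probe set, so its rise could not be set against another one.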

How the data were processed

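Total RNA of murine lung was read on 8 arrays, 2 in each of 4 groups, per the labels. Each deposited value is a linear intensity of a probe set. The 2% trimmed mean was 800.39 to 800.41 on every array, so they had been scaled before deposit. The sources used here do not name the software. The 66 controls among 12488 probe sets were left out of the tests. Values under the 20th percentile (69.6, or 6.12 in log2) were raised to it, and 10953 probe sets above it on at least 2 arrays were tested.

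Symbols are from the 2016 array annotation: 10833 probe sets carry 1 symbol, 396 carry several and 1193 are unnamed. Group means were fitted to all 8 arrays in limma 3.58.1 under R 4.3.3 (trended prior, 4 residual degrees of freedom), with 6 comparisons. The median SE was 0.3 for 2 against 2 arrays. The fit was run on simulated data drawn independently for each array from its own means and spreads. Such data hold no array-wide shift or 5'/3' difference, so they cannot test for either. Figures used matplotlib 3.10.9.

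Matrix probe sets that passed and the 4 of smallest p in each comparison were named with intensities. So were the 2 of highest mean intensity in each role. For many of these only the HeOuJ arrays are given. Further probe sets were chosen after their values were seen. Members and lists were chosen with earlier results of these data known. Alternatives covered normalisation, floor, filter, variance trend, replicate letters, the 5'/3' ratio, arrays in the fit and leaving out each array.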

Additional observations from a re-analysis of the deposited data

How the results depend on the processing

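The only matrix call, Col9a1 in HeOuJ ozone, was fragile. The count of matrix probe sets passing there was 1 with quantile normalisation and 2, with Lox added, at a floor of the 10th percentile. It was 0 without the filter on dim probe sets, where 48 probe sets passed in all. It was also 0 without the intensity trend, with the 5'/3' covariate and with only the 4 arrays of the comparison. In these 3 fits 0 probe sets passed in all. It was 0 to 0 in the 8 fits that left out 1 array. The cause was not tested. For the other 5 comparisons the count stayed at 0 in every alternative run. Over all probe sets, the 50 calls in HeOuJ ozone ranged from 0 to 70 over the alternatives, 0 to 22 with 1 array left out.

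With the letters 1a and 1b as a replicate block the matrix count was 0 (Col9a1 at a limma adjusted p of 0.0512) and 57 probe sets passed in all. Deviations of arrays with the same letter correlated at -0.0101 to 0.138, so the letters were not taken as pairs.

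Of the 24 effects that passed or had the 4 smallest p-values of a comparison, 23 kept their direction in every alternative run. The exception was Col6a1 in HeOuJ over HeJ averaged over exposures, -0.49 as reported and 0.12 (SE 0.34) with the 5'/3' covariate. The effects had been chosen for small p-values on these same arrays. Several alternatives, such as dropping the intensity trend or an array outside the comparison, cannot change a fold change. Kept directions are therefore no independent support. Among all 82 matrix probe sets, 27 turned the sign of their HeOuJ ozone effect with that covariate. Intensity near the floor limits Col17a1, Col4a4, Fbn2 and the dimmer probe sets.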
